A study of Mus musculus with 6 samples.

Results

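Extracellular vesicles (EVs) shed by MCF10A, a line of human mammary epithelium that forms no tumours, were compared with the phosphate-buffered saline (PBS) that carried them, in NIH3T3, an immortalised mouse embryonic fibroblast line. The members were all genes with at least 10 normalised reads in at least 2 of the 4 libraries of these groups, which kept 12255 of the 20475 genes of the table. A normalised read is a read count adjusted by the authors to a library size common to all samples. The group given PBS had 2 libraries, the group given MCF10A EVs had 2, and a group given EVs of MDA-MB-231, a line of triple-negative human breast carcinoma, also had 2 and entered the same fit. No genetic change is labelled in any group. All cells were at passage 5 in serum-containing medium, the dose comes to about 800 EVs per recipient cell if the labels' notation is read as powers of 10, and RNA was taken at 48 h. The model is thus 1 recipient line at 1 time point and 1 labelled dose. Cracr2a, at a second-highest value of 10.1, lay just inside the rule and 1700029J07Rik, at 9.94, just outside it.

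Vesicles that cells release carry membrane proteins, lipids and RNA, and recipient cells can bind them or take them up. Fibroblasts in culture cycle in response to serum, secrete collagens and other matrix, and make cytokines and acute phase proteins when stimulated. In cells short of oxygen, hypoxia-inducible factors raise the transcription of angiogenic, glycolytic and collagen-hydroxylating genes. In cells entering the cycle, E2F factors act on genes of DNA replication, and MYC on genes of ribosome production.

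Library totals ran from 22451173 to 29315530 recovered reads, and 14553 to 14856 genes had a read in a library. In the 4 libraries used here, 3 reads, the upper limit that a count of 0 allows, came to 2.54 to 3.26 normalised reads. All 14 fibroblast markers had reads, with a summed level of 496311 and 496942 normalised reads with PBS and 437003 and 423863 with MCF10A EVs. Of 14 epithelial markers 6 had 0 reads in these 4 libraries (among them Epcam, Krt5, Krt18, Krt19 and Esrp1), and the list summed to 71.8 and 76.7 against 62.3 and 60.0. Of 13 leukocyte and macrophage markers 4 had 0 reads (Ptprc, Emr1, Cd3e and Tyrobp). Endothelial, adipocyte, muscle and neural lists had 2, 2, 3 and 1 markers at 0. Of the fibroblast markers 9 fell and Col3a1 rose. In the other lists Cd14, Lipe and Des fell and Cdh1, Esam, Nes and Ncam1 rose, and their part in the results was not tested. Cdh1 and Esam were called among all tested genes but were too low for the member rule, so their rises rest on few reads. Lipe, Des and Ncam1 kept their call in 1, 2 and 3 of the 6 fits that left out 1 library. The labels do not say that replicates were separate cultures, so p-values measure only the spread between these libraries, which may be technical. Differences are limma estimates on log2 of the normalised read plus 1, which understates the fold of low genes. Adjusted p-values are limma's with Benjamini-Hochberg adjustment over 15025 genes, and "rose", "fell" and "called" refer to an adjusted p under 0.05.

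Many transcripts differed by small amounts between the MCF10A EV and PBS libraries. Of the 12255 members, 2547 were called higher (20.8%) and 2127 lower (17.4%), together 4674 (38.1%). Counts in the lists below are to be read beside these shares. Rises were 54.5% of the calls, a split that depended on the scaling and the tool. It was 61.7% with reads scaled to library totals and 50.5% with DESeq2. The libraries of the groups did not overlap for 8605 members (70.2%). The median change was 1.19-fold among those that rose and 1.20-fold among those that fell. Large changes were mostly falls: 94 members were lower by at least 2-fold (0.767%) and 14 higher by at least 2-fold (0.114%). At 1.5-fold the counts were 300 lower and 131 higher, and at 3-fold 11 and 0. Genes that fell made up 34.1% of the normalised reads of the PBS libraries and genes that rose 25.7%. The median absolute difference between the groups was 0.15 on the log2 scale, against 0.060 between the PBS replicates and 0.062 between the MCF10A EV replicates. Bulk RNA cannot tell a shift in how many cells are in a state from a shift in RNA per cell.

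The share of members called grew with their level. It was 8.48% below 30 normalised reads, 23.4% between 100 and 300, 49.0% between 1000 and 3000 and 64.6% at 10000 or more. Among called members the median absolute log2 difference went the other way, from 1.25 below 30 normalised reads to 0.18 at 10000 or more. Of the falls of at least 2-fold, 29 were in members with a mean of at least 100 normalised reads, and of such rises 3 were. Without PBS replicate 1, PBS replicate 2 or MCF10A EV replicate 2, the rises numbered 1613, 1631 and 1621 and the falls 1171, 1199 and 1378. Falls of at least 2-fold numbered 49 without either PBS replicate. Of the members called, 1266 rose and 952 fell in each of the 6 fits that left out 1 library.

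**Figure D1:**
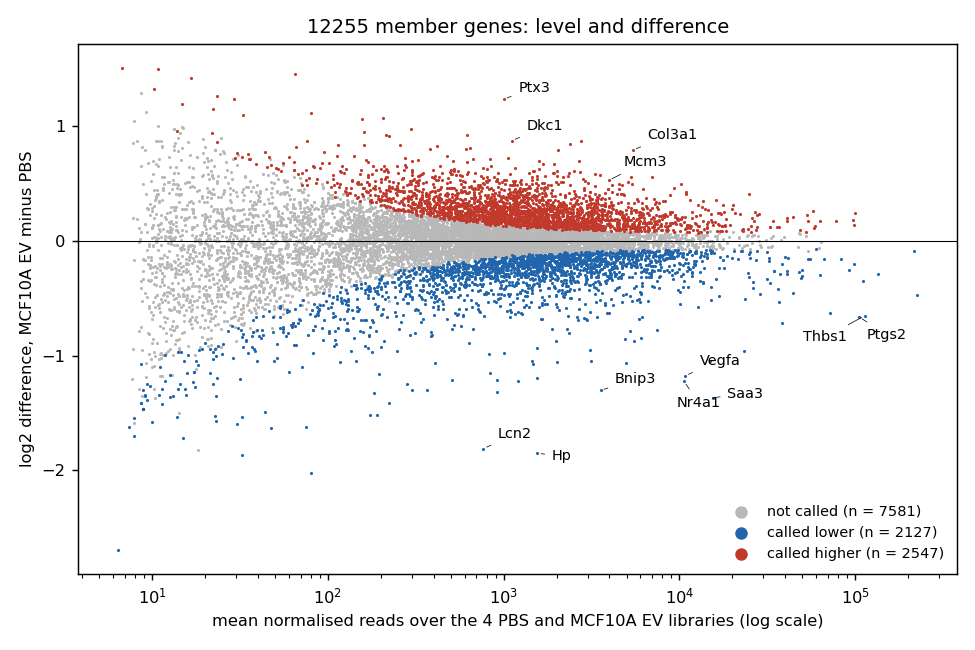
Each point is a member gene, with its mean normalised reads over the 4 libraries on a log axis and its log2 difference, MCF10A EV minus PBS. Called members (2547 higher in red, 2127 lower in blue) sit closest to 0 at high levels, and Hp and Lcn2 are the lowest of the labelled genes.

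The 12 largest rises among members with a mean of at least 100 normalised reads were led by Ptx3 on chromosome 3, which encodes the soluble pattern receptor pentraxin 3. Ptx3 was at 569 and 622 normalised reads with PBS and at 1335 and 1477 with MCF10A EVs. The rise was 2.36-fold (log2 1.24 ± 0.065 SE, adjusted p = 4.9e-09). Groups that did not overlap were a condition for entry to this set. Dctd on chromosome 8, which encodes dCMP deaminase of thymidylate synthesis, rose from 141 and 125 to 261 and 299.6, or 2.10-fold. Nr1h5 on chromosome 3, a nuclear receptor gene, rose 2.09-fold, with PBS libraries at 123 and 80.7 and vesicle libraries at 188 and 233. Its PBS libraries were far apart, and limma without the mean-variance trend did not call it. The other rises had a range from 1.97-fold to 1.79-fold. They included Shmt1, the cytosolic serine hydroxymethyltransferase (1.90-fold), Dna2, a nuclease-helicase of DNA replication (1.89-fold), and Dkc1, the pseudouridine synthase of small nucleolar particles (1.83-fold). Mdn1, an ATPase of large ribosomal subunit assembly, rose 1.79-fold. Amotl2, an angiomotin family gene, rose 1.83-fold, and Calcrl, a receptor of adrenomedullin and CGRP, rose 1.90-fold. Gpatch4, Dusp9, a MAP kinase phosphatase gene, and Zfp418 completed the group, and limma without trend did not call Zfp418.

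The 12 largest falls were led by Hp and Lcn2 and also held Saa3, all genes of the acute phase response. Hp on chromosome 8, which encodes haptoglobin, was at 2501 and 2375 normalised reads with PBS and at 668 and 682 with MCF10A EVs. Lcn2 on chromosome 2, which encodes the siderophore-binding lipocalin, was at 1229 and 1159 with PBS and at 342 and 336 with the vesicles. In both genes the vesicle libraries were close together and far below the PBS libraries. Hp fell 3.61-fold (log2 -1.85 ± 0.045 SE, adjusted p = 1.12e-12) and Lcn2 fell 3.51-fold (adjusted p = 2.91e-10). Saa3 on chromosome 7, a serum amyloid A gene, went from 21614 and 23099 to 8575 and 8738, or 2.58-fold. It was the most abundant of the 12. Nos2 on chromosome 11, the inducible nitric oxide synthase, fell 2.50-fold from 1320.2 and 1302 to 551 and 500.3. Tnn, which encodes the matrix protein tenascin-N, fell 2.87-fold, and Plek, which encodes pleckstrin, fell 2.51-fold. Bnip3, a mitophagy receptor gene of the hypoxia response, fell 2.47-fold. Osbp2, an oxysterol-binding protein gene, Gngt2, a G protein gamma subunit gene, Unc13a, Gdpd2 and Stfa3, a stefin gene, fell by 2.38-fold to 2.86-fold.

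**Figure D2:**
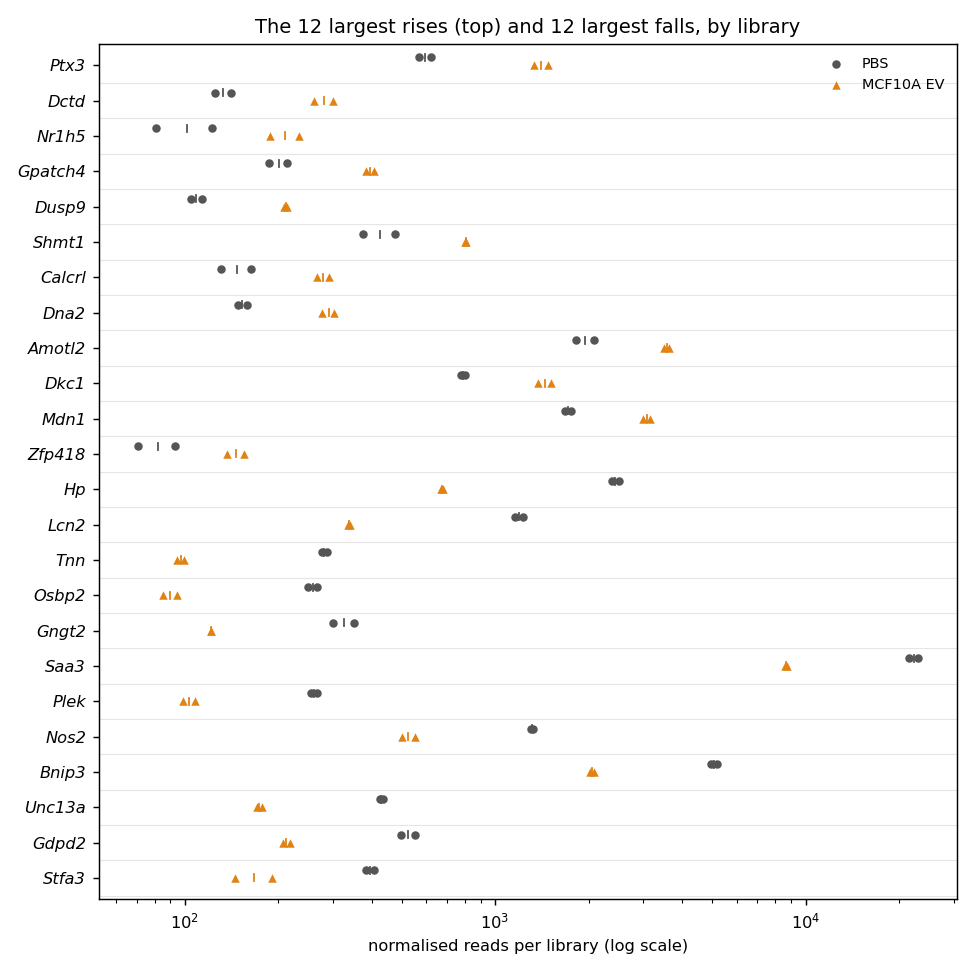
Normalised reads in each of the 2 PBS and 2 MCF10A EV libraries (log axis) for the 12 largest rises and 12 largest falls, with short bars at the group means. Only genes whose groups do not overlap were eligible, and the largest fold difference is that of Hp.

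Hypoxia-inducible genes fell nearly together. Of 22 members 19 fell and 2 rose, and their median log2 difference was -0.65, where the median of all members was 0.0086 and 17.4% fell. Vegfa on chromosome 17, the angiogenic growth factor, was at 14863 and 14998 normalised reads with PBS and at 6625 and 6587 with MCF10A EVs. Bnip3 on chromosome 7 was at 5185 and 4944 and at 2077 and 2023. In both genes the vesicle libraries lay within a narrow band below the PBS level, and the falls were 2.26-fold (adjusted p = 6.8e-13) and 2.47-fold (adjusted p = 7.57e-12). Ero1l, which encodes an oxidase of disulfide formation in the endoplasmic reticulum, fell 1.80-fold from 7611 and 7840.3 to 4327 and 4247. Mxi1, whose product opposes MYC, fell 1.83-fold from 2585 and 2547 to 1407 and 1395. Ddit4, an inhibitor of mTORC1 signalling, fell 1.97-fold, and Plod2, a collagen lysyl hydroxylase, fell 1.70-fold. The members that rose were Adm, which encodes adrenomedullin (log2 0.50), and Stc2, which encodes stanniocalcin 2 (log2 0.36), while Pfkfb3 was at -0.058 and was not called. Members named outside the naming rule, such as these, were chosen after their values were seen. In the fits without 1 library 17 to 19 fell, and 1 rose without PBS replicate 1, PBS replicate 2 or MCF10A EV replicate 2.

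Promoters of the genes at the centre of these results were read from RefSeq windows of 300 bases, 250 before and 50 after each annotated start, on build GRCm38.p6, of which 9280 members had at least 1 by symbol. The core of the hypoxia response element, ACGTG, was sought on both strands. It was in 15 of 26 promoters of hypoxia-inducible members (57.7%) and in 17 of 38 of glycolysis and glycogen members (44.7%), against 19.6% of all 32851 promoters. These promoters came from 17 of the 22 hypoxia-inducible members and from 26 glycolysis and glycogen members. A gene can have several windows, so shares here and below count promoters and not genes. ACGTG was in 26.5% of promoters of all members that fell, 28.2% of those that rose and 23.3% of those not called. The 250 bases before the start of Bnip3, the largest fall of the list, and of P4ha2, a collagen prolyl hydroxylase gene that fell 1.39-fold from 5527 and 5541 to 4032 and 3939, are given 5′ to 3′ on the gene's strand with matches in capitals. Bnip3 is at chr7:138909507-138909756 on the minus strand and P4ha2 at chr11:54100674-54100923 on the plus strand. In Bnip3 the matches on the 2 strands overlap in the palindrome CACGTG, which starts 108 bases before the gene. In P4ha2 the match starts 78 bases before it.
Bnip3: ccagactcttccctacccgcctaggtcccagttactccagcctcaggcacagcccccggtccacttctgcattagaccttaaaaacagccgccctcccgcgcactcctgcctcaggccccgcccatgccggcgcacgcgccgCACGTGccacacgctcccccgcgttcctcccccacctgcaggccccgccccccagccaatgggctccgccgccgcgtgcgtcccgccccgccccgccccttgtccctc
P4ha2: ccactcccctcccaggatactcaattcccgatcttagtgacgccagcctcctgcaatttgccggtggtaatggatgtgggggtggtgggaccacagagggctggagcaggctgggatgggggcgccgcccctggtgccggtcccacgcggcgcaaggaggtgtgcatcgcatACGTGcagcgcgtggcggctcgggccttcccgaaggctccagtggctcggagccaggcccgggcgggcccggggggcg
Both were shown because they hold a match, so they do not stand for the list, and a match is not evidence of binding.

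The glycolytic genes that changed fell. Lists can share members, so their counts are not separate observations. Mxi1, for example, is in both the hypoxia-inducible and the MYC and MAX lists, and Pdk1 is also taken up with the hypoxia genes below. Of 26 members of the glycolysis and glycogen list, 21 fell and 0 rose, and the median was -0.32. With reads scaled to library totals 1 member was called higher. Pdk1 on chromosome 2, a kinase that holds pyruvate out of the mitochondrial cycle, was at 4171 and 4305 normalised reads with PBS and at 1984 and 2108 with MCF10A EVs, a 2.07-fold fall (adjusted p = 8.94e-11). Pfkl, the liver-type phosphofructokinase, fell 1.61-fold from 7287 and 7152 to 4386 and 4606. Tpi1, triosephosphate isomerase, fell 1.43-fold from 18009 and 17539 to 12471 and 12421, and Gys1, glycogen synthase, fell 1.44-fold. The libraries did not overlap in any of these 4 genes, nor in 70.2% of all members. The 5 members not called were Pfkm, Slc16a3, Pgm1, Slc16a1 and Ldhb, with log2 differences from -0.15 to 0.12. The summed level of the list was 387713 and 380744 normalised reads with PBS and 302299 and 304127 with the vesicles. The pentose phosphate branch differed from this: of 7 members G6pdx (1.09-fold) and Pgd (1.09-fold) rose and Tkt fell (1.10-fold). None of these 3 was called by limma without trend, and the rises numbered 1 without either PBS replicate or MCF10A EV replicate 1.

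Sterol synthesis fell as well. Of 22 cholesterol synthesis members 18 fell and 0 rose, and the median was -0.30. Those not called included Mvk, Ebp and Dhcr7, at -0.092, -0.064 and -0.028. Idi1, isopentenyl diphosphate isomerase, went from 5904 and 5678 to 4348 and 4043, a 1.38-fold fall (adjusted p = 2.69e-07). Insig1, a sterol-regulated retention protein gene, fell 1.38-fold from 3830.2 and 3866 to 2789 and 2797. Msmo1, a methylsterol oxidase, fell 1.33-fold, and Fdps, farnesyl diphosphate synthase, fell 1.34-fold. The sterol response element as TCACNCCAC was in 0 of 18 promoters of this list and in 1.2% of all promoters. These promoters came from 15 of the 22 members. At so low a share, so few promoters cannot tell the list from the rest. Fatty acid genes were mixed, with 10 of 24 lower and 3 higher. Lpl, which encodes lipoprotein lipase, fell 2.07-fold from 20402 and 20072 to 9785 and 9796, and the desaturase gene Scd1 fell 1.42-fold. The 3 that rose were Fabp5, Acaca and Fasn, at log2 0.33, 0.18 and 0.076. Without PBS replicate 1 the falls of the fatty acid list numbered 6.

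DNA replication genes rose as a whole. All 34 members of the list were called higher, with log2 differences between 0.23 and 0.63 and a median of 0.40, where 20.8% of all members rose. The replicative helicase genes moved within a narrow range: Mcm2 rose 1.48-fold, Mcm3 1.44-fold, Mcm4 1.37-fold and Mcm5 1.46-fold. Mcm5 on chromosome 8 was at 2284 and 2350.2 normalised reads with PBS and at 3349 and 3392 with MCF10A EVs. Mcm3 on chromosome 1 was at 3279 and 3205 and at 4649 and 4705 (adjusted p = 1.38e-08). Every vesicle library lay above every PBS library for these 2 genes, where the groups did not overlap in 70.2% of all members. With 1 library left out, 29 to 32 of the 34 were called, and with limma without trend 28.

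E2F sites were sought in the same windows as TTTCCCGC, TTTGGCGC, TTTCGCGC or TTTGCCGC on both strands. They were in 13 of 32 promoters of DNA replication members (40.6%), which came from 27 genes, against 2.3% of all promoters. Among all members they were in 6.8% of promoters of genes that rose, 1.8% of those that fell and 3.4% of those not called. Mcm5 and Mcm6, helicase subunits with matches on both strands, are printed as before. Mcm6 is outside the naming rule, was picked for its 3 matches and rose 1.33-fold. Mcm5 is at chr8:75109259-75109508 on the plus strand and Mcm6 at chr1:128359706-128359955 on the minus strand.
Mcm5: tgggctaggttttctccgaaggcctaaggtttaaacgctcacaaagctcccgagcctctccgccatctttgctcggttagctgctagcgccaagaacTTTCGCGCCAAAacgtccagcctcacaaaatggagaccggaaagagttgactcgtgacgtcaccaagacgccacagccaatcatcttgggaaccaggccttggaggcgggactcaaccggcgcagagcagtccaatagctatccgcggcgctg
Mcm6: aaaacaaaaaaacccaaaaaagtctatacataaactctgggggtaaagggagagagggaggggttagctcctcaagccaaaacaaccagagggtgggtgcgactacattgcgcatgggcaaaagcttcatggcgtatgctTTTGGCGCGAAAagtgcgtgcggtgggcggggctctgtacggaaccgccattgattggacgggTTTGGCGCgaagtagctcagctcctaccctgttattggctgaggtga
In each the matches overlap within a run TTTCGCGCCAAA or TTTGGCGCGAAA, which starts 153 bases before Mcm5 and 110 bases before Mcm6, and Mcm6 has a further match 47 bases before its start.

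Genes of nucleotide supply and of mitosis rose with those of replication. Of 26 nucleotide synthesis members 22 rose and 0 fell, with a median of 0.34. Atic, which closes the purine ring, rose 1.52-fold from 2194 and 2127 to 3208 and 3372. Gart, another enzyme of purine synthesis, rose 1.51-fold, Ctps, CTP synthase, 1.36-fold and Rrm2, the regulated subunit of ribonucleotide reductase, 1.42-fold. The 4 not called were Impdh1, Paics, Hprt and Dut, from -0.12 to 0.048. Of 30 mitosis members 28 rose and 0 fell, with a median of 0.30, and Ccnb2 and Cenpa were not called. Mki67, a marker of cycling cells, rose 1.25-fold from 15399.6 and 16237 to 19361 and 20009. The kinesin genes Kif11 and Kif20a rose 1.26-fold and 1.25-fold, and Top2a, a DNA topoisomerase, rose 1.21-fold. Of 23 genes of G1 cyclins and E2F factors, 13 rose and 3 fell. Ccne1, cyclin E1, rose 1.45-fold from 805 and 838 to 1197 and 1178, and Cdk4 rose 1.20-fold. The 3 that fell, Rb1, Cdkn1b and Rbl2, encode restraints on the entry to S phase. Rb1 fell 1.52-fold from 873 and 869.8 to 543 and 602.

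The highest median of any list was that of the nucleolus, while the hypoxia-inducible median was larger in size and negative. Of 38 nucleolar and RNA polymerase I members 35 rose and 0 fell, with a median of 0.46, and Polr1c, Polr1e and Taf1d were not called. Dkc1 on the X chromosome went from 798 and 775 to 1375 and 1515 normalised reads (log2 0.87 ± 0.052 SE, adjusted p = 1.69e-08). Utp20, a scaffold of small subunit processing, rose 1.62-fold from 2018 and 2068 to 3331 and 3307. Nop56, a core protein of small nucleolar particles, rose 1.49-fold, and Mybbp1a rose 1.48-fold. The vesicle libraries of all 4 genes lay above the PBS libraries, where the groups did not overlap in 70.2% of all members. The E-box CACGTG, a site of MYC and of other helix-loop-helix factors, was in 7 of 42 promoters of this list (16.7%) and in 7.2% of all promoters. It was in 13.0% of promoters of all members that rose and 8.3% of those that fell. The share was higher in the nuclear transport list (20.6%), which rose, and in cholesterol synthesis (22.2%) and the AP-1, EGR and NR4A list (19.2%), most of which fell. Myc itself was at 1556 and 1575 with PBS and at 1589.8 and 1658 with the vesicles, a log2 difference of 0.052 with a 95% interval from -0.038 to 0.14, and was not called (adjusted p = 0.392). Its libraries did not overlap, but the difference was within the error of the model. Among the 13 members of the MYC and MAX network Mxi1, Mxd4 and Mnt, which oppose MYC, fell. The 5 that rose included Tfap4 (1.79-fold), a helix-loop-helix factor, and Mycn (log2 0.73). Limma without trend called 0 of these 5, and the rises of this list numbered 3 without either PBS replicate or MCF10A EV replicate 2.

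Nuclear transport and splicing followed. All 36 nuclear transport members rose, with a median of 0.35. Ran, the GTPase that drives transport, rose 1.33-fold from 9344 and 9309 to 12475 and 12371, and Kpnb1, importin beta, rose 1.32-fold from 21585 and 21172 to 27996 and 28648. Rangap1, the activator of the Ran GTPase, rose 1.40-fold. Of 36 splicing factor members 30 rose and Srsf5 alone fell, 1.30-fold from 3863 and 4122 to 3159 and 2989.5, while its relative Srsf7 rose 1.32-fold from 1918 and 1933 to 2506 and 2562. The helicase gene Ddx39 rose 1.36-fold and Eftud2, a GTPase of the spliceosome, rose 1.26-fold. Limma without trend called 26 of the transport genes and 16 of the splicing genes higher.

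Genes of translation did not all move alike. Of 22 cytosolic aminoacyl-tRNA synthetase members 18 rose and 0 fell, with a median of 0.23. Vars and Mars rose 1.26-fold and 1.25-fold. Of 31 initiation factor members 20 rose and 3 fell. Eif3b rose 1.25-fold, and Eif2b2, a subunit of the exchange factor for eIF2, fell 1.38-fold from 2220.0 and 2391 to 1609.6 and 1724. The initiation factor falls numbered 1 without PBS replicate 2 or MCF10A EV replicate 1. Of 41 cytosolic ribosomal protein members 0 rose and 9 fell, with a median of -0.052, where 17.4% of all members fell and 20.8% rose. Calls grew with level, and at 10000 or more normalised reads 127 of 367 members fell and 110 rose. Rpl10 fell 1.11-fold from 22935 and 22272 to 20267 and 20308, a call that limma without trend did not make. Without PBS replicate 1, PBS replicate 2, MCF10A EV replicate 1 or MCF10A EV replicate 2, the ribosomal protein falls numbered 2, 2, 2 and 1. With reads scaled to library totals 4 fell and 2 rose, and limma without trend called 0. Counts of falls were larger with edgeR (17) and DESeq2 (12), which called 0 higher. Reads of this family are uncertain, since near-identical pseudogenes can share them. Mitochondrial ribosomal proteins rose in 25 of 45 cases and fell in 0, with a median of 0.18, and numbered 16 to 21 with 1 library left out, lowest without PBS replicate 2. Mrpl12 rose 1.32-fold from 1265 and 1288 to 1688 and 1681.

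Mitochondrial import, the chaperonin and the proteasome rose by small steps. Of 24 import members 16 rose and 0 fell, with a median of 0.21. Hspd1, the mitochondrial chaperonin, went from 8446 and 8547 to 11754 and 12181, a 1.41-fold rise (adjusted p = 2.4e-08), and Timm8a1 rose 1.45-fold. All 8 members of the cytosolic TCP1 chaperonin rose, with a median of 0.22, led by Cct6a at 1.29-fold. Of 37 proteasome members 23 rose, with a median of 0.15, and Psmd6 and Psmc2 rose 1.24-fold and 1.19-fold. The 1 that fell was Psmb9, a subunit of the immunoproteasome, at log2 -1.25, a call kept only in the fit without MCF10A EV replicate 2 among those that left out 1 library. Of 48 respiratory chain members 11 rose and 4 fell, where 20.8% and 17.4% of all members did, so that the rises were near the share over all members. The rises numbered 6, 3, 4 and 6 without PBS replicate 1, PBS replicate 2, MCF10A EV replicate 1 and MCF10A EV replicate 2, and the falls 0, 1, 2 and 1. Cyc1, cytochrome c1, rose 1.18-fold. In the cytosolic heat shock list 11 of 19 rose and 5 fell. Those that rose were led by Ahsa1 (1.33-fold) and Fkbp4 (1.29-fold), partners of HSP90, and Dnajb4, of the HSP40 family, fell 1.34-fold. Those that fell also included Bag3, Hspa1a, Hspa1b and Cryab. Hspa1a and Hspa1b are near-identical copies, so their reads are uncertain. The falls of that list numbered 2, 2, 3 and 2 without PBS replicate 1, PBS replicate 2, MCF10A EV replicate 1 and MCF10A EV replicate 2, and the rises 7 without the last of these.

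In the lists of single-carbon metabolism, the antioxidant response and p53 targets more members rose than fell. Of 18 serine and folate members 11 rose and 3 fell, and the falls numbered 0, 1 and 1 without PBS replicate 1, PBS replicate 2 and MCF10A EV replicate 2. Shmt1 was at 476 and 375 with PBS and at 806 and 803 with MCF10A EVs. Its PBS libraries were spread more than its vesicle libraries. The mitochondrial Shmt2 rose 1.41-fold, Mthfd1 1.51-fold and Psat1 1.23-fold. Of 28 members of the NRF2 antioxidant list 17 rose and 5 fell. Nqo1, a quinone reductase, rose 1.48-fold from 1410.2 and 1378 to 2087 and 2042 (adjusted p = 6.97e-08). Txnrd1, thioredoxin reductase, rose 1.27-fold from 7019 and 7261 to 9003 and 9168. Gclm, the modifier subunit of glutathione synthesis, rose 1.37-fold from 1546 and 1445 to 2112 and 1999.9. The falls were in Gstm1, Gstm2, Mgst1, Sod2 and Nfe2l2, the gene of NRF2. Without PBS replicate 1 or PBS replicate 2 the rises numbered 11 and 10 and the falls 3 and 2, and limma without trend called 5 rises. The antioxidant response core TGACNNNGC was in 9 of 29 promoters of this list (31.0%) and in 12.4% of all promoters, with 14.6% among members that rose and 14.2% among those that fell. A like share, 8 of 26 (30.8%), held it in the AP-1, EGR and NR4A list, most of which fell. Gclm, at chr3:122245307-122245556 on the plus strand, is printed as a named gene of this list that holds a match, on the opposite strand and 134 bases before the start.
Gclm: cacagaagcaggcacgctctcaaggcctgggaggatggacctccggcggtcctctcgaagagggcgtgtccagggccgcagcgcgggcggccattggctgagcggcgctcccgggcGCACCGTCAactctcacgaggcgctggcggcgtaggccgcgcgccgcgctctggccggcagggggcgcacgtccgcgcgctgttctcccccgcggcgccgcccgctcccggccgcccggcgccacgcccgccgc
Of 24 p53 target members 12 rose and Trp53inp1 fell, a call lost without PBS replicate 2, MCF10A EV replicate 2 or either MDA-MB-231 EV replicate. Trp53, the p53 gene, rose 1.30-fold from 2469 and 2445 to 3243 and 3132, Aen, an exonuclease of the p53 response, rose 1.44-fold and Eda2r 1.54-fold. Cdkn1a and Mdm2, both induced by p53, were not called, at log2 -0.081 and -0.063.

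Immediate early genes fell. Of 25 members of the AP-1, EGR and NR4A list 18 fell and Klf10 alone rose, with a median of -0.35. Nr4a1 on chromosome 15, an orphan nuclear receptor gene, was at 14746 and 14965 normalised reads with PBS and at 6571 and 6149 with MCF10A EVs. Nr4a2 on chromosome 2 was at 6732 and 6649 and at 3224 and 3184. In both the vesicle libraries lay well below the PBS libraries, by 2.34-fold and 2.09-fold (adjusted p = 1.04e-11 for each). Nr4a3 fell 2.32-fold and Egr1, a zinc finger factor gene of the serum response, 2.06-fold. The call of Klf10 was lost without either PBS or either MCF10A EV library. Of 21 members of the MAPK feedback and ETS list 10 fell and Etv4 and Lrig1 rose. Errfi1, an inhibitor of EGF receptor kinase, fell 1.71-fold from 9521 and 9208 to 5498 and 5447. Spry2 fell 1.47-fold, and the phosphatase genes Dusp1 and Dusp6 fell 1.46-fold and 1.31-fold.

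Acute phase genes held both the 2 deepest falls and the highest rise among members with a mean of at least 100 normalised reads. Of 22 members of the acute phase and innate defence list 15 fell and 3 rose, and the median was -0.41. Besides Hp, Lcn2 and Saa3, Cp, which encodes ceruloplasmin, fell 1.81-fold from 6161 and 6464 to 3512 and 3462. Those that rose included Ptx3 and Steap4 (log2 0.22). Cd14, a lipopolysaccharide co-receptor gene that is also a macrophage marker, fell 1.75-fold from 3038 and 2946 to 1733 and 1689. It made up most of the macrophage marker sum, which was 3158 and 3048 with PBS and 1845 and 1791 with the vesicles, and Ptprc, the pan-leukocyte marker, was at 0. Of 30 cytokine and chemokine members 15 fell and 4 rose (Vcam1, Ccl7, Il1rl1 and Csf1). Il1rn, the interleukin-1 receptor antagonist, fell 2.29-fold from 2153 and 2139 to 937 and 941. Il6 fell 2.10-fold from 1901 and 2072 to 985 and 905 and Lif, of the same family, 1.95-fold from 30195 and 31069.8 to 15862 and 15613. Nfkbiz, an inducible regulator of NF-kB, fell 1.44-fold, whereas Nfkbia, Tnfaip3 and Relb of that pathway were not called (log2 0.038, 0.0067 and -0.15).

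Interferon-stimulated genes moved in both directions, with 8 of 28 lower and 3 higher, where 17.4% of all members were lower and 20.8% higher. Ifit2 rose 1.28-fold from 1419 and 1434 to 1908 and 1755, and Tapbp, tapasin of peptide loading, fell 1.24-fold. The falls of this list numbered 3 and 2 without PBS replicate 1 and PBS replicate 2, and 5 without either MCF10A EV replicate, and the rises 1 without PBS replicate 2 or MCF10A EV replicate 2. MHC class I presentation fell in 8 of 19 cases and rose in 0, with B2m, the light chain of class I molecules, 1.33-fold lower, from 8771 and 8618 to 6607 and 6486, and H2-D1 1.15-fold lower. These falls numbered 5 without PBS replicate 1, PBS replicate 2 or MCF10A EV replicate 1. With library totals 1 member of the MHC class I list was called higher, and with quantile scaling 2. Class I genes are a family of close copies, so their reads are uncertain, and B2m is a single gene.

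The matrix did not move as a block. Of 20 collagen chain members 9 fell and 4 rose, and the median was -0.094. Col3a1 on chromosome 1, which encodes the chain of type III collagen, went from 3963 and 3973 to 6882 and 6889, a 1.74-fold rise (adjusted p = 8.94e-11). Col1a1 and Col1a2, the chains of type I collagen, fell 1.11-fold, from 57110.4 and 56174 to 51133 and 50718, and 1.19-fold. Limma without trend did not call Col1a1. The collagen rises numbered 2 without PBS replicate 1. Col12a1 rose 1.27-fold and Col5a3 fell 1.58-fold. Of 21 members of the collagen modifying list 9 fell and 2 rose, or 1 without any of the PBS or MCF10A EV replicates. Plod1 and Plod2, lysyl hydroxylases, fell 1.54-fold and 1.70-fold, and Lox, which crosslinks collagen, fell 1.32-fold from 12777 and 12879 to 9822 and 9545. Of 29 matricellular members 11 fell and 5 rose, or 3 without PBS replicate 2. Thbs1, thrombospondin 1, fell 1.57-fold from 138144 and 138937 to 89308 and 86964. Of 17 proteoglycan members 9 fell, led by Prelp at 1.93-fold, and 3 rose, led by Vcan, which encodes versican, at 1.20-fold. The proteoglycan falls numbered 6, 5 and 6, and the rises 1 each, without PBS replicate 1, PBS replicate 2 and MCF10A EV replicate 1. Of 33 proteases and inhibitors of the matrix 9 fell and 5 rose, or 3 without PBS replicate 1, where 17.4% and 20.8% of all members did. The collagenase gene Mmp13 fell 2.33-fold from 1714 and 1653 to 745 and 699, and Mmp2 and Mmp14 fell 1.28-fold and 1.23-fold. Integrins and laminins fell in 9 of 22 cases, among them Itgav (1.32-fold) and Lamc1 (1.21-fold).

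Contractile genes rose in 12 of 25 cases and fell in 2, with a median of 0.15. Acta2, smooth muscle actin, went from 1606 and 1395 to 2467 and 2304, a 1.59-fold rise (adjusted p = 5.15e-07). Myh10, a non-muscle myosin, rose 1.22-fold, Zyx, zyxin of focal adhesions, 1.19-fold and Flna, filamin A, 1.15-fold. Other genes of the smooth muscle programme did not pass: Tagln was at log2 0.25 and Cnn1 at 0.20. The contractile rises numbered 7 without MCF10A EV replicate 2, and the falls 0 without PBS replicate 1 or MCF10A EV replicate 2 and 1 in the other fits without 1 library. YAP and TEAD targets rose in 11 of 27 cases and fell in 6, the falls near the 17.4% of all members. Amotl2 went from 2084 and 1818 to 3508 and 3636, Ajuba rose 1.58-fold and Axl 1.18-fold. Without PBS replicate 1 or MCF10A EV replicate 1 the rises of that list numbered 6, and its falls were 2 or 3 without any 1 library. Of 32 members of the TGF-beta list 13 fell and 3 rose. Skil and Tgif1, repressors of SMAD signalling, fell 1.58-fold and 1.40-fold, and Id1, an inhibitor of helix-loop-helix factors, rose 1.61-fold from 466 and 486 to 765 and 769.7. Growth factors and receptors split into 10 higher and 11 lower of 31, where 20.8% and 17.4% of all members were. Nrg1, neuregulin 1, rose 1.51-fold, Angptl4 rose 1.44-fold from 937 and 911 to 1295 and 1357, and Fgf7 and Ereg fell 1.29-fold and 1.29-fold. Growth factor falls numbered 7 without either PBS replicate.

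Of 17 clock members 11 were lower, the median was -0.33, and Nr1d1 alone rose (log2 0.30). Arntl, which encodes the activator BMAL1, fell 1.55-fold from 1513 and 1555 to 1003 and 975. Nfil3, a repressor of the clock output, fell 1.61-fold, Bhlhe40 1.47-fold and Rora 1.43-fold. Leaving out either PBS replicate 1 or MCF10A EV replicate 1 ended the call of Nr1d1. The groups were sampled at the same labelled time, and no series of times was taken. Autophagy genes fell in 10 of 29 cases and rose in 2 (1 without any 1 library), with Wipi1, Ulk1 and Ulk2 lower by 1.25-fold, 1.23-fold and 1.24-fold. Of 43 lysosome members 11 rose and 5 fell, each by little and near the shares over all members (20.8% and 17.4%), and Ctsl rose 1.13-fold, a call not made by limma without trend. The lysosome falls numbered 1, 2, 3 and 2 without PBS replicate 1, PBS replicate 2, MCF10A EV replicate 1 and MCF10A EV replicate 2. Of 38 members of endocytosis and vesicle formation 15 fell and 3 rose. Cav1, the coat protein gene of caveolae, fell 1.22-fold from 40472 and 41170.1 to 34044 and 32750.2, and the tetraspanin genes Cd81 and Cd82 fell 1.21-fold and 1.44-fold. Those falls numbered 6, 9 and 8 without PBS replicate 1, PBS replicate 2 and MCF10A EV replicate 2, and the rises 0 without PBS replicate 2 or MCF10A EV replicate 1 and 1 without MCF10A EV replicate 2. Prostaglandin genes were 5 lower and 4 higher of 14, where 17.4% and 20.8% of all members were. Ptgs2, the inducible cyclooxygenase and among the most abundant members, went from 128739 and 128902 to 83618 and 79259.6, a 1.58-fold fall.

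**Figure D3:**
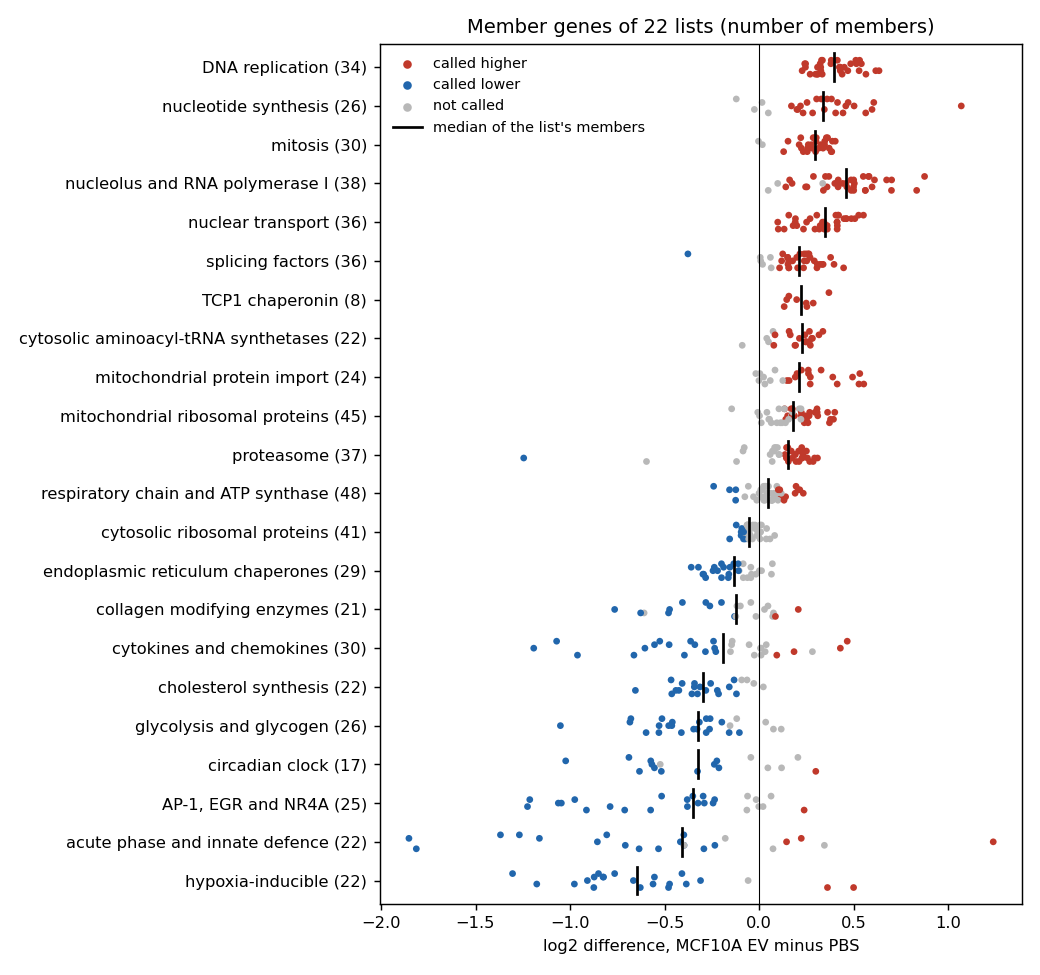
Each point is a member gene of a list, placed by its log2 difference, MCF10A EV minus PBS, and coloured by its call; black bars are the medians of the lists. The medians run from -0.65 for hypoxia-inducible genes to 0.46 for the nucleolus, and all members of DNA replication, nuclear transport and the TCP1 chaperonin lie above 0.

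Some of the lists above are given with 0 calls by limma in a direction. At an unadjusted p under 0.05 the count in that direction was 1 for nucleotide synthesis, cytosolic synthetases, cytosolic ribosomal proteins, endoplasmic reticulum chaperones and MHC class I presentation, and 0 for the others. There edgeR called 1 nucleotide synthesis and 1 synthetase gene lower and 0 in the other lists, and DESeq2 called 0 in each. Limma without trend called fewer members by over 1.5 times in several lists. Rises then numbered 11 for the cytosolic synthetases, 11 for initiation factors, 14 for mitochondrial ribosomal proteins, 10 for mitochondrial import, 4 for the TCP1 chaperonin, 12 for the proteasome, 3 for the respiratory chain, 8 for G1 cyclins and E2F factors, 7 for heat shock, 5 for contractile genes, 6 for YAP targets and 3 for the lysosome. Falls then numbered 7 for endoplasmic reticulum chaperones, 4 for interferon-stimulated and for MHC class I genes, 3 for collagen chains, 7 for matricellular genes, 5 for proteoglycans and for integrins and laminins, 8 for the TGF-beta list, 7 for growth factors, 6 for autophagy and 4 for endocytosis.

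The MDA-MB-231 EV group allowed a direct test of whether levels differed with the source of the vesicles. Against MDA-MB-231 EVs 2498 members were called (20.4%), 1499 of them higher with MCF10A EVs (12.2%) and 999 lower (8.15%), so 60.0% of calls were higher. That split depended on the scaling: with reads scaled to library totals 38.4% of calls were higher, and with quantile scaling 49.4%. The counts were 531 and 185 without MDA-MB-231 EV replicate 2, 836 and 267 without MDA-MB-231 EV replicate 1, and 751 and 393 without MCF10A EV replicate 1. Without MCF10A EV replicate 2 they were 865 and 532, and the lower calls were 612 and 614 without PBS replicate 1 and PBS replicate 2. The fits without an MDA-MB-231 EV library were chosen after the data were seen. Lists taken up below were not the only ones to differ. For example, 14 of 22 cytosolic synthetase members were higher and 0 lower, and 9 of 28 interferon-stimulated members were lower and 0 higher. Limma without trend called 0 members of either list, and with library totals 1 synthetase was called lower.

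Genes of the endoplasmic reticulum and of stress signalling were higher with MCF10A EVs than with MDA-MB-231 EVs. Of 29 endoplasmic reticulum chaperone members 26 were higher and 0 lower, with a median log2 difference of 0.32, and 22 to 25 were higher in the fits without 1 library. Against PBS the same list had 17 lower and 0 higher, with a median of -0.13, and 11 lower without PBS replicate 1. With library totals 1 was called higher than PBS, and with quantile scaling 2. Hspa5, the main chaperone of this compartment, was at 58417 and 57875 normalised reads in the PBS libraries, 53252 and 50828 in the MCF10A EV libraries and 35739.9 and 33161 in those of MDA-MB-231 EVs. The MCF10A EV libraries lay between the other groups, far nearer to PBS. The difference between the vesicle groups was 0.60 on the log2 scale (adjusted p = 1.45e-08), and that from PBS -0.16 (adjusted p = 0.00204), a call lost by limma without trend and without PBS replicate 1, PBS replicate 2 or MCF10A EV replicate 2. Syvn1, a ubiquitin ligase of this compartment, and Edem1 were 0.47 and 0.27 higher than with MDA-MB-231 EVs. Of 17 members of the ATF4 and CHOP list 14 were higher and 0 lower, with a median of 0.43, against 4 higher and 8 lower relative to PBS. Without 1 library, 11 to 13 of the 14 were called. Relative to PBS the rises of that list numbered 1 without PBS replicate 2 or MCF10A EV replicate 2, 2 without PBS replicate 1 or MCF10A EV replicate 1, and the falls 5 without PBS replicate 2. Chac1, a glutathione-degrading enzyme gene induced by ATF4, was at 1143 and 1039, 1488 and 1385 and 592 and 558 in the 3 groups in the same order, so the vesicle groups lay on either side of PBS.

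Cytokines and immediate early genes also stood higher than with MDA-MB-231 EVs. Of 30 cytokine and chemokine members 20 were higher and 2 lower, with a median of 0.38. The lower calls numbered 1 in 4 of the 6 fits without 1 library (PBS replicate 2, both MCF10A EV replicates and MDA-MB-231 EV replicate 1). Il6 was at 482 and 441 and Lif at 8603 and 7781 with MDA-MB-231 EVs, so that for both the MCF10A EV libraries lay between MDA-MB-231 EVs and PBS. Of 25 AP-1, EGR and NR4A members 14 were higher and 0 lower, with a median of 0.23. These numbered 8 when the first library of either vesicle group was left out and 7 without MDA-MB-231 EV replicate 2. Nr4a1 was at 4283 and 4020.0 with MDA-MB-231 EVs, a difference of 0.62 (adjusted p = 2.48e-08), and Egr1 at 880.4 and 819, which did not pass (adjusted p = 0.0624). Of 43 lysosome members 23 were higher and 1 lower, which numbered 12 and 8 without MCF10A EV replicate 1 and MDA-MB-231 EV replicate 2, and 19 higher with library totals.

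Some hypoxia and acute phase genes were lower than with MDA-MB-231 EVs. In that comparison 8.15% of all members were lower and 12.2% higher. Of 22 hypoxia-inducible members 8 were lower and 4 higher, and higher calls numbered 1 to 3 in the fits without 1 library, fewest without MDA-MB-231 EV replicate 2. Bnip3 was at 3021 and 2883 with MDA-MB-231 EVs, above both MCF10A EV libraries (difference -0.53, adjusted p = 1.56e-07). Pdk1 was at 2776 and 2707 there (-0.42) and Mxi1 at 1819 and 1785 (-0.36). Vegfa went the other way, at 5638 and 5589.7 with MDA-MB-231 EVs (0.23). Of 22 acute phase members 10 were lower and 4 higher, which were 4 and 3 without MDA-MB-231 EV replicate 2. They were 6 and 3 when MDA-MB-231 EV replicate 1, or MCF10A EV replicate 2, was left out. Hp was at 1396 and 1449 and Cp at 5376 and 5476 with MDA-MB-231 EVs, both between PBS and MCF10A EVs. Among 30 mitosis members 18 were lower and 0 higher, with a median of -0.14. That count was 10 without MCF10A EV replicate 2, 7 without MCF10A EV replicate 1, and 3 without either MDA-MB-231 EV replicate. Mki67 was at 22457 and 22292 with MDA-MB-231 EVs (-0.18, adjusted p = 0.000526). Of 34 DNA replication members 7 were lower and 0 higher, which numbered 1 and 2 without MDA-MB-231 EV replicate 1 and MDA-MB-231 EV replicate 2, 3 without MCF10A EV replicate 1 and 4 in the other such fits. Limma without trend called 14 endoplasmic reticulum, 7 ATF4, 13 cytokine, 7 AP-1 and 0 lysosome members higher, and 3 hypoxia, 3 acute phase, 1 mitosis and 0 DNA replication members lower. Against MDA-MB-231 EVs, the endoplasmic reticulum, ATF4, cytokine, AP-1, hypoxia, acute phase, mitosis and replication medians kept their sign under every alternative run. These included library totals. Where 0 was given for a direction in this comparison, the count at an unadjusted p under 0.05 was also 0, as were those of edgeR and DESeq2.

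**Figure D4:**
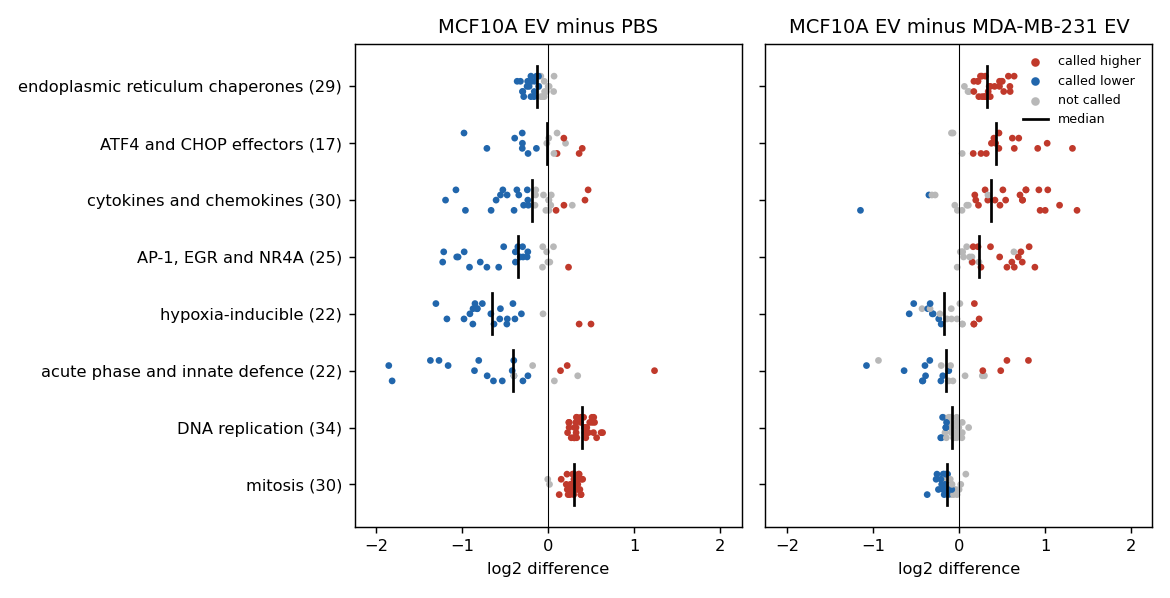
Members of 8 lists by their log2 difference from PBS (left) and from MDA-MB-231 EVs (right), coloured by call, with black bars at the medians. Endoplasmic reticulum chaperones have a median of -0.13 on the left and 0.32 on the right; the comparisons share the MCF10A EV libraries.

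**Figure D5:**
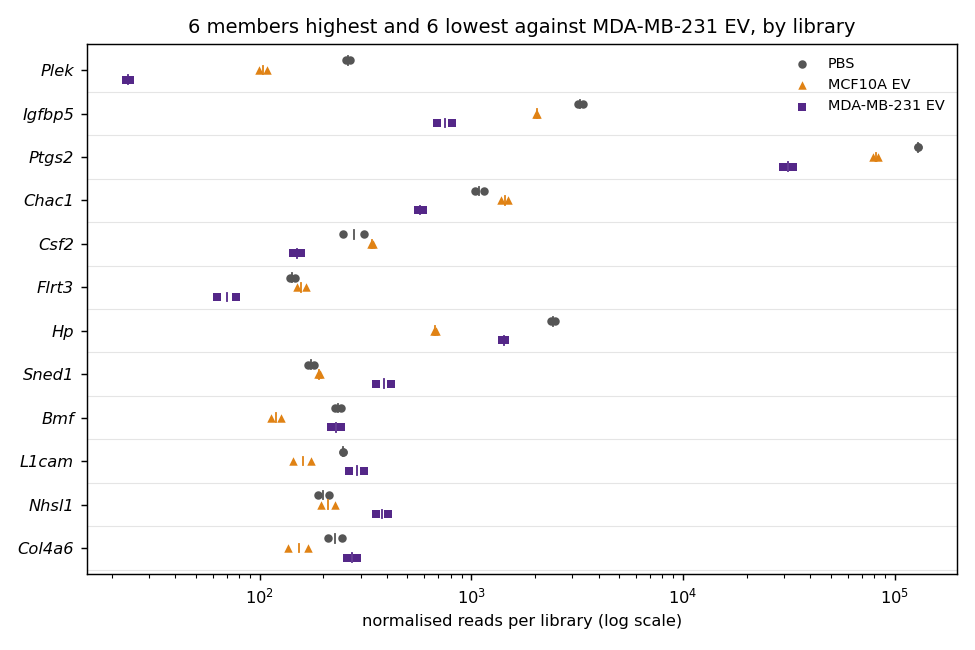
Normalised reads in all 6 libraries (log axis) for the 6 members highest and the 6 lowest with MCF10A EVs relative to MDA-MB-231 EVs, with short bars at group means. Plek is lowest with MDA-MB-231 EVs, and Hp is lowest with MCF10A EVs.

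Some members share reads. Of the 94 falls of at least 2-fold, 14 were protocadherin alpha genes, alternative first exons joined to shared last exons. The means of all protocadherin alpha members called lower ran from 8.66 to 8338 normalised reads. In all, 105 members had the same reads in all 6 libraries as another member, and of these 8 were called higher and 20 lower. The counts of such genes are uncertain, and 80 falls of at least 2-fold remained without the protocadherin alpha genes.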

How the data were processed

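RNA of 6 NIH3T3 libraries (Kapa stranded mRNA kit, per the labels' protocols) was analysed, 2 per group. The submitters' processing notes name TopHat2, edgeR and hg19; since the table lists mouse genes, the mouse build is not given in the sources used here and genes are placed by chromosome only. The deposited values are a normalised signal: edgeR counts adjusted by the authors to a common library size. Whole reads recovered by inverting that adjustment gave back every deposited value to within a relative difference of 1e-06, and served the edgeR and DESeq2 alternatives. The deposited signal was tested as log2(value + 1) with limma 3.58.1 (trend, R 4.3.3) over all 6 libraries and the 15025 genes with at least 1 in at least 2 libraries, at adjusted p under 0.05. edgeR 4.0.16, DESeq2 1.42.0, other scalings, filters and pseudocounts, a replicate block and leaving out each library were alternatives. Same-numbered replicates did not deviate together.

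Named genes were the 12 largest called rises and falls with a mean of at least 100 normalised reads and groups that did not overlap (unnamed gene models left out), up to 4 called members of each list with the smallest p, and 11 fixed genes. Against MDA-MB-231 EVs they were the 6 largest each way. The members and gene lists were chosen with earlier results of these data known. The tests were tried on simulated data. Counts of 0 carry counting error only. Promoter windows come from RefSeq, with no link to the build of the reads.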

Additional observations from a re-analysis of the deposited data

Results flagged for a closer look

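Of the members with a mean of at least 100 normalised reads, 12 are listed here because their level with MCF10A EVs differed from that with MDA-MB-231 EVs, tested as the difference itself with limma. Those higher with MCF10A EVs were Plek (log2 2.07), Igfbp5 (1.44), Ptgs2 (1.37), Chac1 (1.32), Csf2 (1.17) and Flrt3 (1.16). Those lower were Hp (log2 -1.07), Sned1 (-1), Bmf (-0.93), L1cam (-0.85), Nhsl1 (-0.85) and Col4a6 (-0.84). Plek, which encodes pleckstrin, was at 255 and 266 normalised reads in the PBS libraries, 99.0 and 108 in the MCF10A EV libraries and 24.4 and 23.5 in those of MDA-MB-231 EVs. Igfbp5, an IGF-binding protein gene, was at 3365 and 3192, 2046 and 2029 and 811 and 691 in the same order. In both the MCF10A EV libraries lay between the other groups. Csf2, the GM-CSF gene, was at 249 and 313, 335 and 344 and 144 and 157, and its difference from PBS did not pass the threshold (adjusted p = 0.0781, though edgeR called it). Bmf, a pro-apoptotic gene of the BCL2 family, was at 227 and 243, 127 and 113 and 217 and 242. L1cam, a cell adhesion gene, was at 248 and 248, 144 and 176 and 312 and 265.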

How the results depend on the processing

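Rises against PBS numbered 1188 with limma without trend and 1644 with DESeq2, and 1613 to 2169 without 1 library. Falls numbered 948 without trend and 1171 to 1750 without 1 library. Rises of at least 2-fold numbered 3 with a pseudocount of 10, 3 at a mean of at least 100, 7 with DESeq2, 22 with quantile scaling and 10 to 16 without 1 library. Falls of at least 2-fold numbered 38, 29 and 42 under the first 3 of these, 51 without trend and 49 to 77 without 1 library. Against MDA-MB-231 EVs, genes called higher numbered 236 without trend, 937 with DESeq2 and 531 to 1066 without 1 library. Those called lower numbered 88, 577 and 185 to 614, and 1751 with library totals. A fit without 1 library leaves a group with 1, which is assumed to vary like the others; those without an MDA-MB-231 EV library were chosen after the data were seen. With the replicate number as a block 2535 rose and 2122 fell, and of the 252 results for named genes 252 kept their direction and call; the numbers are not shown to pair the libraries, since replicate differences correlated at -0.0065 to 0.019 between groups. Named-gene calls lost numbered 32 without trend, 3 with DESeq2, 4 with 4 libraries, 2 with quantile scaling and 4 to 16 without 1 library. Vim went to 0 with quantile scaling, which sets a gene of the same rank in each library to the same value; it was the third in all 4 libraries. With library totals the medians of MYC and MAX (0.014), ATF4 and CHOP (0.0092), IGF-binding proteins (0.010) and WNT (0.012) changed sign, as did that of growth factors at a mean of at least 100 (0.040). Without 1 library, medians that changed sign ran from -0.0078 to 0.044 (MYC and MAX), -0.0041 to 0.059 (amino acid transporters), -0.052 to 0.011 (matricellular), -0.065 to 0.014 (WNT), -0.0054 to 0.038 (lysosome) and -0.033 to 0.060 (prostaglandin). The causes were not tested. Depth limits members below 30 normalised reads, of which 8.48% were called.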

Other observations

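Of 10 polyamine synthesis members 5 rose and 2 fell, where 20.8% and 17.4% of all members did, so that the falls were near that share. Srm, spermidine synthase, rose 1.43-fold from 1682 and 1571 to 2321 and 2331 normalised reads, and Amd1, the S-adenosylmethionine decarboxylase, rose 1.34-fold. Odc1, ornithine decarboxylase, rose 1.16-fold, a call kept in 3 of the 6 fits without 1 library. The members that fell were Sat1, an acetyltransferase that marks polyamines for export or breakdown (1.19-fold), and Oaz2, an antizyme gene. The rises numbered 2, 3 and 3 without PBS replicate 1, PBS replicate 2 and MCF10A EV replicate 2, and the falls 1 in 5 of the 6 such fits (all but that without MCF10A EV replicate 1).

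Of 19 amino acid transporter members 5 rose and 5 fell, where 20.8% and 17.4% of all members did, and the median was 0.016. Slc38a4 rose 1.30-fold and Slc6a9, a glycine transporter gene, fell 1.21-fold. The rises numbered 3, 2 and 3 without PBS replicate 1, PBS replicate 2 and MCF10A EV replicate 2, and the falls 1, 3 and 3 without PBS replicate 1, MCF10A EV replicate 1 and MCF10A EV replicate 2. The insulin-like growth factor list had 10 members, of which 2 fell and 2 rose, near the 17.4% and 20.8% of all members. Its median was -0.013. Igfbp5 and Irs2, an insulin receptor substrate gene, were called lower (1.61-fold and 1.22-fold), and Irs1 (1.33-fold) and Igf2bp1 higher. The rises were 1 without PBS replicate 1 or MCF10A EV replicate 2. Of 19 WNT pathway members 5 fell, among them Dkk3 (1.63-fold), and Ryk rose (log2 0.09), a call not made in any fit without 1 library. Over all members 17.4% fell and 20.8% rose, and the median of the list was -0.010. The WNT falls numbered 1, 3, 2, 3 and 3 without PBS replicate 1, MCF10A EV replicate 1, MCF10A EV replicate 2 and each MDA-MB-231 EV replicate.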
